A study of Mus musculus with 12 samples.

Results

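The small leucine-rich proteoglycans were followed across tibia shaft RNA of a mouse model of osteogenesis imperfecta, with and without Sost. The members were the 10 genes whose symbol in the count table was Dcn, Bgn, Fmod, Lum, Aspn, Omd, Ogn, Prelp, Kera or Podn. Each symbol was found once, so that 10 of the 47069 genes of the table were followed, and all 10 had enough counts to be tested in every comparison. Genes were picked out by symbol and not by a measured value, though the set was chosen with earlier results of these data known.

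Small leucine-rich proteoglycans are secreted proteins built on a curved array of leucine-rich repeats, and many of them carry chondroitin, dermatan or keratan sulfate chains. They bind collagen fibrils and set fibril diameter and spacing, and several also bind growth factors of the transforming growth factor beta and bone morphogenetic protein families. Class I holds decorin (Dcn), biglycan (Bgn) and asporin (Aspn). Class II holds fibromodulin (Fmod), lumican (Lum), keratocan (Kera), osteomodulin (Omd, also called osteoadherin) and Prelp, osteoglycin (Ogn, also called mimecan) is of class III, and podocan (Podn) is of class V. In bone, biglycan and decorin are abundant non-collagenous proteins of the matrix and osteomodulin is a product of mature osteoblasts, whereas fibromodulin, lumican and decorin are also abundant in tendon and keratocan is best known from the cornea.

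RNA of the tibia shaft, with the marrow flushed out, was sequenced from 12 male mice aged 8 weeks, 1 library per mouse and 4 mice per group. The groups were WT, Jrt;Sost-het and Jrt;Sost-ko. All mice of both Jrt groups were Col1a1 Jrt/+, that is, they had 1 copy of a splice-site mutation of Col1a1 that models severe dominant osteogenesis imperfecta. Jrt;Sost-ko mice were also Sost-/-, without functional sclerostin, an inhibitor of bone formation that osteocytes secrete. For the Jrt;Sost-het group, the labels state the Col1a1 genotype alone, and that these mice were Sost+/- is known from the paper. Neither allele was present in WT mice. Both mutant loci lie on chromosome 11, and the Jrt Sost- chromosome traces back to a crossover in 1 mouse. By the paper, all groups were of mixed FVB and C57BL/6 background. WT mice came from a parallel colony set up to match it, so that colony and genotype cannot be told apart in any comparison with WT. In a shaft that holds many cell types, fewer cells of a type and less RNA per cell cannot be told apart either.

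Libraries held 24366061 to 44418863 counts on genes, and members together made up 0.155 to 0.331% of them. Sost itself read 50.3, 72.4, 62.04 and 28.6 CPM in WT mice 1 to 4, 28.1, 34.5, 70.3 and 27.2 CPM in Jrt;Sost-het mice 1 to 4 and 0.569, 1.29, 0.506 and 0.328 CPM in Jrt;Sost-ko mice 1 to 4, so that every Jrt;Sost-ko library was below every other library. The 9 osteoblast markers, from the lowest, Ifitm5, to the highest, Spp1, had at least 295 counts in every mouse. Markers of other tissues were present too and varied between mice. Skeletal muscle markers made up 0.00318 to 3.31% of a library. WT mice 3 and 4 stood apart by the summed level of 8 epidermis markers, 126 and 590.2 CPM, against 1.88 to 5.16 CPM in the other 10 mice. Of these markers Krt15 and Dsg1a had no count in 8 mice each, Krt14 in 6, Krt5 in 4 and Krt1 in 3. For the members, each comparison with WT is therefore also given without these 2 mice. Differences of all other genes from WT are given with all WT mice only.

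Lum, Dcn and Bgn were the leading members. To compare levels between genes, CPM (the count relative to the library size, scaled over the 12 mice) were divided by the length of the gene's merged exons in kb. On this scale the mean over the 12 mice was 205 ± 52.9 CPM per kb (SD, n = 12) for Lum, 148 ± 29.6 for Dcn and 136 ± 30.5 for Bgn. In CPM not divided by length, the means were 864 for Dcn, 832 for Bgn and 502 for Lum. The lead of Lum thus rests on the merged exons of all transcripts, 2.448 kb from 1 transcript for Lum. They were 5.838 kb from 5 transcripts for Dcn and 6.099 kb from 8 for Bgn. The 3 genes made up 69.2 to 79.7% of the members' summed level per kb in a mouse, and ranked 166, 251 and 268 among 17178 genes with a known length. Below them stood Aspn with 56.4 ± 23.3, Fmod with 45.3 ± 23.5, Ogn with 32.01 ± 6.24, Omd with 22.98 ± 5.59 and Prelp with 15.4 ± 6.17 CPM per kb. Kera (2.85 ± 2.21) and Podn (2.15 ± 0.595 CPM per kb) were the lowest members and ranked 10317 and 11146.

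Of the 9 steps in this order, 4 were larger than the SD of the log2 ratio between mice, and 6 passed an exact sign-flip permutation test, adjusted over the 9 neighbouring pairs. The order was taken from the same mice, and the test covers the spread between mice, not an error in the lengths. Lum was above Dcn in 11 of 12 mice (mean log2 ratio 0.45, SD 0.25), Bgn above Aspn in 12 of 12 (1.37, SD 0.43), Ogn above Omd in 12 of 12 (0.49, SD 0.22) and Prelp above Kera in 12 of 12 (2.87, SD 1.28), with adjusted exact p = 0.0022, 0.00146, 0.00146 and 0.00146. Aspn was above Fmod in 10 of 12 mice (0.37, SD 0.39, adjusted exact p = 0.0154) and Omd above Prelp in 11 of 12 (0.63, SD 0.65, adjusted exact p = 0.0149), steps that passed the test but were within 1 SD. Both steps turned in CPM not divided by length, where the means were 149.8 for Fmod and 132.7 for Aspn, and 55.6 for Prelp and 51.7 for Omd. Neighbours that did not pass it were Dcn and Bgn (9 of 12 mice, mean log2 ratio 0.12, adjusted exact p = 0.117), Fmod and Ogn (9 of 12 mice, 0.34, adjusted exact p = 0.081) and Kera and Podn (6 of 12 mice, -0.08, adjusted exact p = 0.854).

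**Figure D1:**
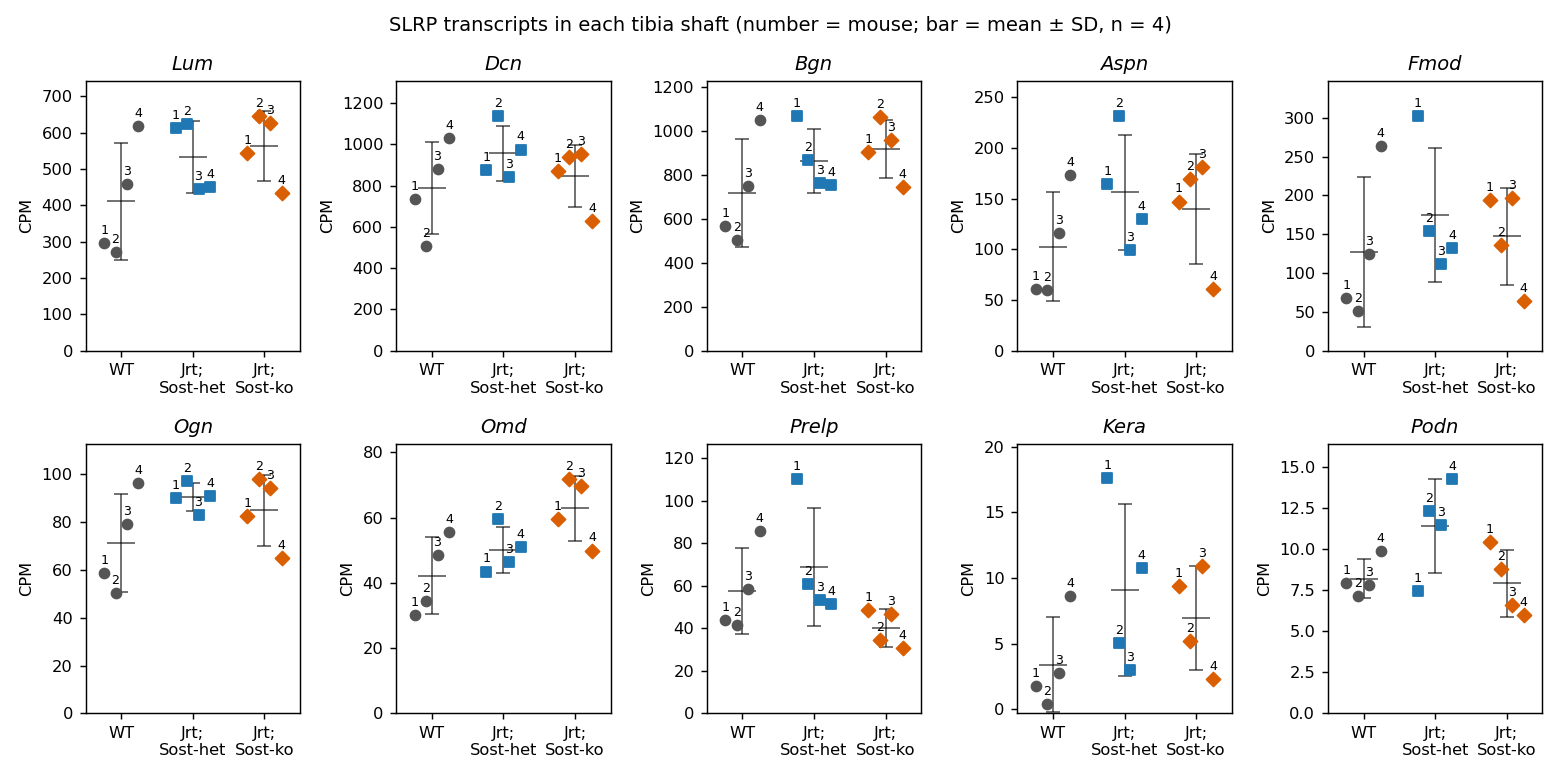
CPM of the 10 members in each mouse, a panel per gene with its own axis starting at or near 0; points are the 4 mice of a group and the bar is the group mean with its SD. The groups overlap in every panel except that the Prelp values of Jrt;Sost-ko mice are all below those of Jrt;Sost-het mice. By SD, WT mice are the most widely spread in Bgn, Dcn, Lum, Ogn, Fmod and Omd.

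Among the class I members, Dcn read 735, 507, 883 and 1030.5 CPM in WT mice 1 to 4, 875, 1137, 842 and 975 CPM in Jrt;Sost-het mice 1 to 4 and 869, 937, 951 and 629 CPM in Jrt;Sost-ko mice 1 to 4. Bgn read 566, 502, 749 and 1048 CPM in WT mice 1 to 4, 1066, 867, 764 and 755 CPM in Jrt;Sost-het mice 1 to 4 and 904, 1062, 958 and 744 CPM in Jrt;Sost-ko mice 1 to 4. For both genes WT mouse 2 was the lowest of the 12 mice. WT mouse 1 was the next lowest for Bgn, and Jrt;Sost-ko mouse 4 for Dcn. Aspn, which competes with decorin for collagen, read 61.02, 59.9, 116 and 173 CPM in WT mice 1 to 4, 164, 231, 99.5 and 129.8 CPM in Jrt;Sost-het mice 1 to 4 and 147, 169, 181 and 60.8 CPM in Jrt;Sost-ko mice 1 to 4. Here WT mice 1 and 2 and Jrt;Sost-ko mouse 4 were close together at 59.9 to 61.0 CPM and the other 9 mice lay between 99.5 and 231 CPM.

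In class II, Lum, a keratan sulfate proteoglycan that binds collagen fibrils, read 297, 272, 458 and 617 CPM in WT mice 1 to 4, 611, 623, 446 and 449 CPM in Jrt;Sost-het mice 1 to 4 and 543, 645, 627 and 435 CPM in Jrt;Sost-ko mice 1 to 4. Fmod, which binds collagen at the same site as lumican, read 67.8, 51.6, 124 and 264 CPM in WT mice 1 to 4, 302, 154, 112 and 133 CPM in Jrt;Sost-het mice 1 to 4 and 194, 136, 197 and 63.9 CPM in Jrt;Sost-ko mice 1 to 4. WT mouse 4 and Jrt;Sost-het mouse 1 were the highest of all mice for Fmod, and the fold between the highest and the lowest mouse was 5.85. Kera ranged more widely still, with 1.78, 0.445, 2.78 and 8.66 CPM in WT mice 1 to 4, 17.6, 5.08, 2.97 and 10.8 CPM in Jrt;Sost-het mice 1 to 4 and 9.43, 5.23, 10.9 and 2.29 CPM in Jrt;Sost-ko mice 1 to 4, from 13 to 464 counts. WT mice 1 and 2 were at the bottom of the range for Kera, and Jrt;Sost-het mouse 1 was at the top. Omd, which binds hydroxyapatite, read 30.1, 34.5, 48.4 and 55.6 CPM in WT mice 1 to 4, 43.5, 59.4, 46.4 and 50.98 CPM in Jrt;Sost-het mice 1 to 4 and 59.7, 71.8, 69.7 and 49.9 CPM in Jrt;Sost-ko mice 1 to 4. The lowest Jrt;Sost-ko mouse for Omd lay within the range of both other groups. Prelp, a basic protein that bears few or no chains and binds heparan sulfate and collagen, read 44.1, 41.4, 58.7 and 85.7 CPM in WT mice 1 to 4, 110.3, 60.97, 53.5 and 51.3 CPM in Jrt;Sost-het mice 1 to 4 and 48.8, 34.6, 46.5 and 30.9 CPM in Jrt;Sost-ko mice 1 to 4. All 4 Jrt;Sost-ko mice were below the 4 Jrt;Sost-het mice for Prelp, while the WT mice overlapped both groups.

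Ogn of class III read 58.7, 50.4, 79.3 and 96.1 CPM in WT mice 1 to 4, 90.1, 97.3, 82.97 and 90.8 CPM in Jrt;Sost-het mice 1 to 4 and 82.6, 98.04, 94.3 and 64.98 CPM in Jrt;Sost-ko mice 1 to 4, with WT mice 1 and 2 below all the others. Podn of class V read 7.92, 7.16, 7.86 and 9.90 CPM in WT mice 1 to 4, 7.47, 12.4, 11.5 and 14.3 CPM in Jrt;Sost-het mice 1 to 4 and 10.4, 8.79, 6.58 and 5.999 CPM in Jrt;Sost-ko mice 1 to 4, and its 3 highest values were those of Jrt;Sost-het mice 2, 3 and 4. Ogn and Dcn varied least between mice (coefficient of variation over the 12 mice 19.5 and 19.96%) and Kera most (77.8%).

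The contrast of Jrt;Sost-ko minus Jrt;Sost-het, below called the Sost contrast, asks whether loss of Sost on the Jrt background goes with other levels of these genes. None of the 10 members was called in either direction at an adjusted p under 0.05 (edgeR's quasi-likelihood test, Benjamini-Hochberg over 16739 genes). The background was 0.00597%, which is Sost alone, and 841 genes (5.02%) had an unadjusted p under 0.05. Unadjusted, 2 of the 10 members (Prelp and Omd) were under 0.05. DESeq2, with 15 genes called in all, and limma-voom, with 0, called no member either. Differences of the leading members were small against their error: Dcn had a log2 fold change of -0.17 (95% confidence interval -0.52 to 0.17), Bgn 0.09 (-0.24 to 0.42) and Lum 0.08 (-0.29 to 0.45). The upper ends of the intervals of Bgn and Lum stand for folds of 1.34 and 1.37 (Jrt;Sost-ko over Jrt;Sost-het). Ogn was as close to 0, at -0.08 (-0.36 to 0.20). Aspn (-0.16, -0.95 to 0.64), Fmod (-0.24, -1.14 to 0.67) and Kera (-0.38, -1.73 to 0.98) had wide intervals, in which a higher and a lower level were both possible.

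Prelp and Omd stood farthest from 0 relative to their error, in opposite directions. Prelp was 69.00 ± 27.8 CPM with Sost+/- and 40.2 ± 8.79 CPM with Sost-/- (SD, n = 4 mice each), a log2 fold change of -0.77 (SE 0.26, 95% confidence interval -1.37 to -0.18). Its unadjusted p was 0.0163 and its adjusted p 0.901 in edgeR, and the exact two-sided permutation p was 0.0286, the smallest that 70 arrangements of 4 against 4 mice give. Prelp was the 1 member of 10 whose groups did not overlap, where 3.05% of all genes tested had no overlap, 1.41% lower in Jrt;Sost-ko mice and 1.64% higher. Omd was 50.1 ± 6.96 CPM in Jrt;Sost-het and 62.8 ± 10.1 CPM in Jrt;Sost-ko mice, a log2 fold change of 0.33 (SE 0.14, 95% confidence interval 0.02 to 0.64), with an unadjusted p of 0.0372 and an exact permutation p of 0.114. Podn had a log2 fold change of -0.52 (SE 0.23, 95% confidence interval -1.05 to 0.01, exact permutation p = 0.114). Over the 10 members, 3 had a log2 fold change above 0 and the median was -0.16, against 50.4% above 0 and a median of 0.00 over all genes. That count rested on single mice, since leaving out Jrt;Sost-het mouse 1 made it 5 and leaving out Jrt;Sost-ko mouse 4 made it 6.

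Markers of cartilage, tendon, muscle and connective tissue leaned the same way as Prelp in this comparison, though none was called. The log2 fold change of 0 of 7 chondrocyte markers was above 0 (median -1.90), and their summed level was 189 to 3431 CPM in Jrt;Sost-het, 98.4 to 769 CPM in Jrt;Sost-ko and 49.4 to 2679 CPM in WT mice. Jrt;Sost-het mouse 1 (3431 CPM) and WT mouse 4 (2679 CPM) had the highest sums, and these were also the highest mice for Prelp. Tendon markers were above 0 in 1 of 6 (median -0.12) with sums of 225 to 452 CPM in Jrt;Sost-het and 109 to 279 CPM in Jrt;Sost-ko mice, fibroblast markers in 0 of 7 (median -0.19; 361 to 446 and 298 to 379 CPM), and skeletal muscle markers in 0 of 15 (median -0.99; 2722 to 31691 and 31.8 to 13654 CPM). None of the chondrocyte, tendon or fibroblast markers was at 0 in any mouse, and of the muscle markers Myh7 alone was, in 3 mice. With the mean of the chondrocyte markers as a covariate, chosen after seeing the data, the log2 fold change of Prelp was -0.51, with the tendon markers -0.47, with the muscle markers -0.74, and with Jrt;Sost-het mouse 1 left out -0.46. The antisense gene Gm15851 shares 350 bp (9.68%) of the exons of Prelp and had 0 to 3 counts per mouse.

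Relative to the other members, Prelp made up 2.62 to 3.10% of the summed level per kb in WT, 2.05 to 3.68% in Jrt;Sost-het and 1.21 to 1.88% in Jrt;Sost-ko mice. The share of Omd was 2.93 to 4.16% in WT, 2.33 to 3.49% in Jrt;Sost-het and 3.69 to 4.34% in Jrt;Sost-ko mice. Shares of Prelp in Jrt;Sost-ko mice lay below those of the other groups, and the share of Omd lay above that of Jrt;Sost-het mice. The share of Lum, too, lay higher in Jrt;Sost-ko (30.8 to 34.8%) than in WT mice (27.7 to 30.2%). These shares describe the same libraries in which Prelp and Omd were singled out, and were given no test. As parts of the same sum they depend on each other, and no background over other genes was counted.

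**Figure D2:**
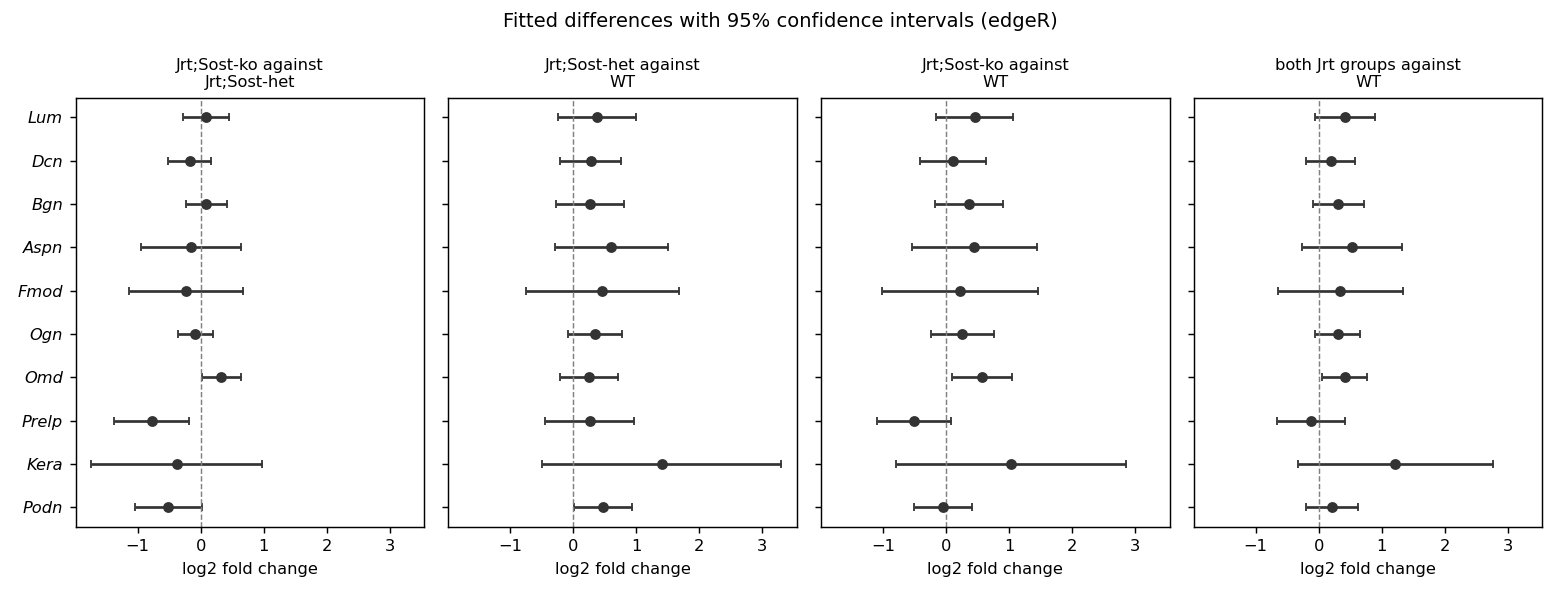
Log2 fold change of each member (points) with its 95% confidence interval (lines) from edgeR in the 4 comparisons. In the Sost contrast, the intervals of Prelp, below 0, and Omd, above 0, are the ones that do not include 0, and no member passed the adjusted threshold in any comparison.

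Comparisons with WT ask how the members stand in mice with the Jrt allele. In Jrt;Sost-het against WT mice, no member was called, as was true of all 16775 genes tested (0%), with 359 genes at an unadjusted p under 0.05 (2.14%). In Jrt;Sost-ko against WT mice no member was called either (background 0.00583% of 17155 genes, with 3.89% at an unadjusted p under 0.05), nor in both Jrt groups against WT (0.0058% of 17245 genes, with 3.21%). DESeq2 (0, 14 and 8 genes called in all) and limma-voom (0, 2 and 0) called no member in the 3 comparisons, and edgeR's unadjusted p was under 0.05 for 1 member in each. No member had groups without overlap, where 1.5% of all genes did in Jrt;Sost-het against WT mice (0.793% higher, 0.703% lower), 2.35% in Jrt;Sost-ko against WT mice (1.31% higher, 1.04% lower) and 0.168% in both Jrt groups against WT (0.104% higher, 0.0638% lower). The 3 comparisons share the WT mice, so their values are not independent of each other.

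The log2 fold change was above 0 for 10 of 10 members in Jrt;Sost-het against WT mice (median 0.35), for 8 of 10 in Jrt;Sost-ko against WT mice (median 0.31) and for 9 of 10 in both Jrt groups against WT (median 0.33). Over all genes tested, 51.3%, 49.1% and 48.8% were above 0. Among the class I members, the log2 fold change of both Jrt groups against WT was 0.19 for Dcn (95% confidence interval -0.20 to 0.58), 0.31 for Bgn (-0.10 to 0.72) and 0.52 for Aspn (-0.27 to 1.31). In class II it was 0.41 for Lum (-0.06 to 0.88), 0.34 for Fmod (-0.65 to 1.33), 1.22 for Kera (-0.32 to 2.76) and -0.13 for Prelp (-0.67 to 0.41). Ogn was at 0.30 (-0.05 to 0.65) and Podn at 0.21 (-0.20 to 0.62). All of these intervals included 0.

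Omd had the smallest unadjusted p of the members in Jrt;Sost-ko against WT mice and in both Jrt groups against WT. Its level was 42.2 ± 11.9 CPM in WT mice (SD, n = 4), and the log2 fold change was 0.24 in Jrt;Sost-het against WT (95% confidence interval -0.21 to 0.70), 0.58 in Jrt;Sost-ko against WT (0.10 to 1.05, unadjusted p = 0.0234, exact permutation p = 0.0571) and 0.41 in both Jrt groups against WT (0.05 to 0.77, unadjusted p = 0.0295, exact permutation p = 0.0485). None of these passed adjustment over all genes. Podn was the member with the smallest unadjusted p in Jrt;Sost-het against WT mice (0.47, unadjusted p = 0.0451, exact permutation p = 0.114) and was at -0.04 in Jrt;Sost-ko against WT mice. Prelp was at 0.26 in the former and -0.51 in the latter (95% confidence interval -1.10 to 0.07).

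WT mice 3 and 4, the mice with epidermis markers, had higher values than WT mice 1 and 2 for 9 of the 10 members, and Podn was the exception, with WT mouse 3 just below WT mouse 1. Without them, the log2 fold change of Jrt;Sost-het against the remaining 2 WT mice was 0.70 for Bgn, 0.63 for Dcn, 1.38 for Aspn, 0.91 for Lum, 1.56 for Fmod, 2.99 for Kera, 0.64 for Omd, 0.73 for Ogn, 0.70 for Prelp and 0.60 for Podn. The member farthest from 0 was Kera with and without these mice. In Jrt;Sost-ko mice the values without the 2 mice were 0.78 for Bgn, 0.45 for Dcn, 1.21 for Aspn, 0.98 for Lum, 1.31 for Fmod, 2.62 for Kera, 0.96 for Omd, 0.64 for Ogn, -0.09 for Prelp and 0.08 for Podn. No member was called without them, the adjusted p from edgeR being 0.114 to 0.278 in Jrt;Sost-het, 0.294 to 0.913 in Jrt;Sost-ko and 0.153 to 0.584 in both Jrt groups against WT. Prelp in both Jrt groups against WT turned from -0.13 to 0.30.

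**Figure D3:**
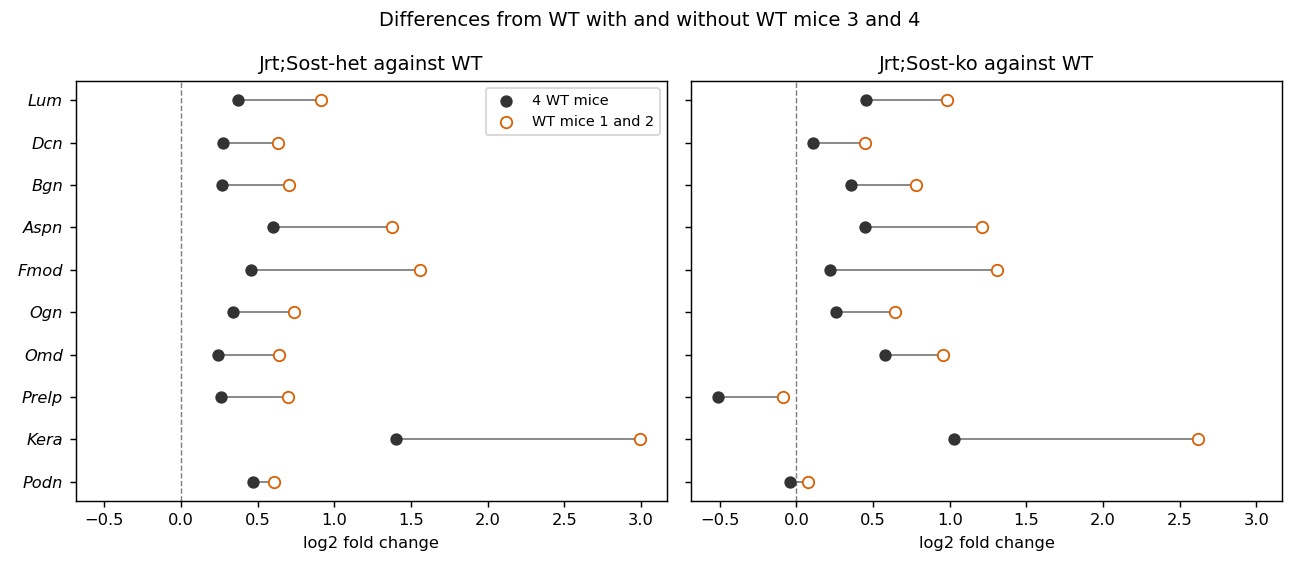
Log2 fold change of each member in each Jrt group against all 4 WT mice and against WT mice 1 and 2 alone. Each of the 10 members has a higher value in both comparisons when the WT mice with epidermis markers are left out, and Prelp in Jrt;Sost-ko mice comes close to 0, at -0.09.

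WT mice 1 and 2 were the 2 lowest of the 12 mice for Bgn, Lum, Omd, Ogn and Kera. For Dcn, Fmod and Aspn, the 3 lowest were WT mice 1 and 2 and Jrt;Sost-ko mouse 4. These 3 mice also had the lowest mean log2 CPM over the 6 tendon markers (3.52 and 2.53 in WT mice 1 and 2 and 3.24 in Jrt;Sost-ko mouse 4) and the highest summed level of 8 marrow markers, 34580.3 and 34948 CPM in WT mice 1 and 2 and 30359 CPM in Jrt;Sost-ko mouse 4, where the other 9 mice had 19912 to 28752 CPM. No marrow marker was at 0 in any mouse. The part of the tissue makeup in the differences from WT was not tested beyond the covariate fits, in which no member was called.

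Most members sit beside another member in the genome (GRCm38, GENCODE M21). On chromosome 10, Dcn (chr10:97479609-97518143), Lum (chr10:97565128-97572703) and Kera (chr10:97606879-97613692) lie on the plus strand with gaps of 46.98 and 34.17 kb, followed by the family gene Epyc at 30.38 kb. On chromosome 13, Aspn (chr13:49544443-49567565), Omd (chr13:49582462-49592822) and Ogn (chr13:49608046-49624501) lie on the plus strand with gaps of 14.9 and 15.22 kb, next to the family gene Ecm2 and inside the span of Cenpp on the other strand, which shares 7 bp of exon with Aspn. On chromosome 1, Prelp (chr1:133910304-133921414, minus strand) and Fmod (chr1:134037254-134048277, plus strand) are 115.84 kb apart with no coding gene between them. Bgn (chrX:73483602-73495933) and Podn (chr4:108014791-108096445) stand alone.

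The 3 neighbours on chromosome 13 have promoters of their own, which are shown because the 3 genes lie side by side on the same strand and their levels are compared across mice below. The RefSeq windows of GRCm38.p6 from 250 bases before to 50 after the start, all on the plus strand, are chr13:49544193-49544492 for Aspn, chr13:49582212-49582511 for Omd and chr13:49607765-49608064 for Ogn. They are written 5′ to 3′ in lower case, and capitals mark TATAAA or TGTGGT on either strand.
Aspn: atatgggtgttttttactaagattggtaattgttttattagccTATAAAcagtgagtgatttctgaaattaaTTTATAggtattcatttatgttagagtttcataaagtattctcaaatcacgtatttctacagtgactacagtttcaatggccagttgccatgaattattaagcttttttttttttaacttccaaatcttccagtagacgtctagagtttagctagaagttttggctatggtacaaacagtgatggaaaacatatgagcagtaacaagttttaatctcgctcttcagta
Omd: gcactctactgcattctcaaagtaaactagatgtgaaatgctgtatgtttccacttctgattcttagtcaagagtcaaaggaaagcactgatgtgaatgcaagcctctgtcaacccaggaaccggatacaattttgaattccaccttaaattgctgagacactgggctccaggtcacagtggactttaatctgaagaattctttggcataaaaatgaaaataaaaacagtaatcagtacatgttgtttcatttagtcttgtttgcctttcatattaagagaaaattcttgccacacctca
Ogn: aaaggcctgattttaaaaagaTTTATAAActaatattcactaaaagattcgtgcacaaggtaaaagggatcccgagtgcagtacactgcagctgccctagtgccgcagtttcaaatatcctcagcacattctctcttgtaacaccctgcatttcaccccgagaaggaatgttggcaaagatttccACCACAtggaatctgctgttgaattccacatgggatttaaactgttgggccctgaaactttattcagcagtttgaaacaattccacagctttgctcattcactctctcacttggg

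TATAAA (the TATA box core), TGTGGT (the core bound by RUNX factors such as Runx2) and TGANTCA (AP-1) were searched on both strands. Aspn held TATAAA at -207 and its reverse complement at -178 from the start. In the Ogn window TATAAA occurs on both strands at -229 and -227, as a single overlapping stretch, and TGTGGT lies on the reverse strand at -65. All of these are matches of letters alone. The TATAAA matches lie 178 to 229 bases before the start, and whether any acts as a TATA box was not tested. None of the 3 motifs was in the Omd window, nor in those of Bgn, Fmod, Kera, Prelp and Podn. Of 32851 promoters of the same length, 13.6% held TATAAA, 16.8% TGTGGT and 7.8% TGANTCA. The GC content was 31.0% for Aspn, 37.7% for Omd and 42.3% for Ogn, where the median of all promoters was 52.7%. Of the 10 members 8 were matched in the promoter table, and Dcn and Lum were the others.

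Members varied together from mouse to mouse. Over the 12 mice, 27 of 45 pairs had an adjusted p under 0.05 for Pearson's r of log2 CPM (permutation test, adjusted over the 45 pairs), and the median r was 0.78. How often pairs of other genes reach such values was not counted, so that these numbers do not set the family apart. Genes outside it came as close to single members, such as Trim3 to Ogn (r = 0.98). Bgn and Lum, on different chromosomes, were the closest pair with r = 0.97 (rho = 0.86, adjusted permutation p = 0.0003). It remained at 0.91 without the 2 mice farthest from the median and was 0.96 for values centred on the group means. Ogn was close to Lum (0.93), Dcn (0.93) and Aspn (0.93). Fmod and Kera formed another close pair, with r = 0.91 (rho = 0.88, adjusted permutation p = 0.000225, 0.84 without 2 mice, 0.92 centred). This pair did not stand apart, since Fmod had r = 0.88 with Bgn and 0.87 with Aspn, and Kera 0.85 with Bgn and with Ogn.

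Genomic neighbours did not have the closest relations throughout. On chromosome 13, r was 0.93 for Aspn and Ogn, 0.80 for Omd and Ogn and 0.77 for Aspn and Omd. On chromosome 10 it was 0.81 for Dcn and Lum, 0.83 for Lum and Kera and 0.78 for Dcn and Kera, and on chromosome 1 0.74 for Fmod and Prelp. Omd and Prelp, at -0.06, gave the lowest r of all pairs, but centred on the group means this pair was at 0.41 and the lowest was Prelp and Podn (-0.11, against 0.25 without centring). Podn had no pair with an adjusted p under 0.05. Of the 27 pairs, 19 kept a permutation p under 0.05 without the 2 mice farthest from the median. The other 8 did not, with r of 0.44 to 0.61 and permutation p of 0.0582 to 0.21. They were Lum with Omd and Kera, Ogn with Kera and Omd, Bgn with Omd, and Dcn with Bgn, Kera and Fmod. The mice left out of these pairs were among WT mice 1 and 2 and Jrt;Sost-ko mouse 4, chosen by 1 gene of the pair. With 10 mice left, a p above 0.05 does not show that a pair rested on them.

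**Figure D4:**
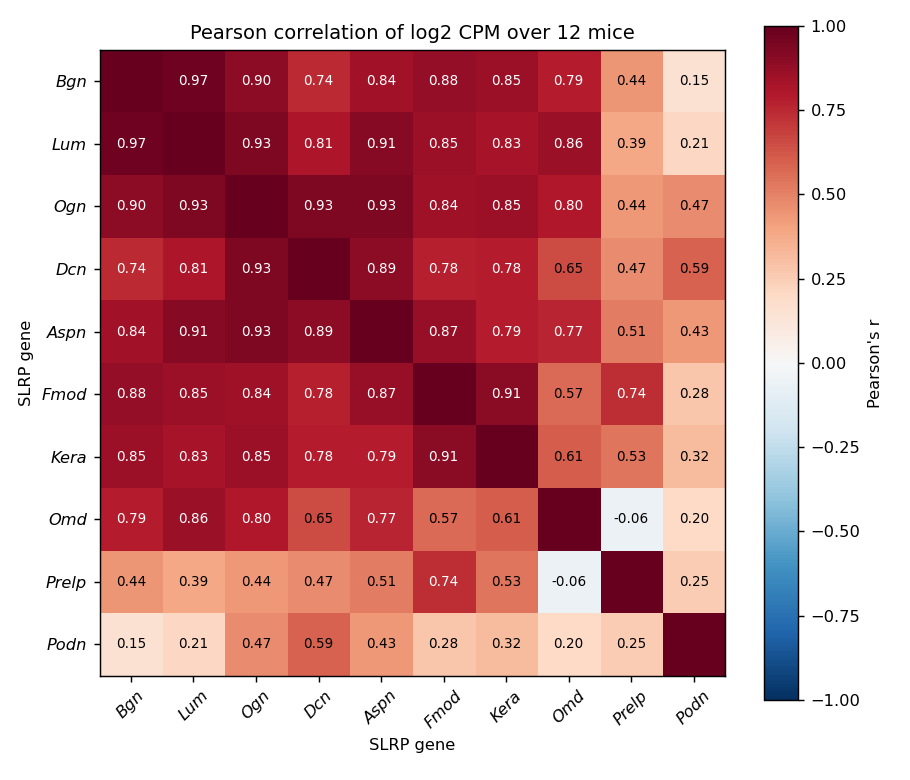
Pearson's r of log2 CPM between the 10 members (rows and columns) over 12 mice. Bgn, Lum, Aspn, Ogn, Dcn, Fmod and Kera have high values with each other, and Prelp with Omd and Podn with most members the lowest.

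Members also varied with the marker lists of the cell types that a flushed shaft can hold. Of 40 relations between a member and the mean log2 CPM of a list, 29 had an adjusted permutation p under 0.05. The like share for genes outside the family was not counted. Fmod followed the tendon markers most closely (r = 0.96, rho = 0.97, adjusted permutation p = 0.0002, 0.96 without 2 mice, 0.95 centred). Kera did so too (r = 0.91, rho = 0.83, adjusted permutation p = 0.0003, 0.80 without 2 mice). For Bgn and Lum the closest list was that of osteoblast markers, with r = 0.98 (rho = 0.90, adjusted permutation p = 0.0002, 0.94 without 2 mice) and r = 0.96 (rho = 0.90, adjusted permutation p = 0.000267, 0.88 without 2 mice). Each of these genes passed with the other of these lists as well. With the osteoblast markers, Fmod was at 0.84 and Kera at 0.84 (0.66 and 0.59 without 2 mice). With the tendon markers, Bgn was at 0.85 and Lum at 0.84 (0.79 and 0.77 without 2 mice).

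Omd followed the osteoblast markers (r = 0.85, 0.65 without 2 mice, adjusted permutation p = 0.00227) and had r = 0.56 with the tendon markers (adjusted permutation p = 0.0756). Prelp was at 0.71 with the tendon markers (0.75 without 2 mice, adjusted permutation p = 0.0193) and 0.31 with the osteoblast markers (adjusted permutation p = 0.34). Centred on the group means, Prelp was at 0.83 with the tendon and 0.79 with the osteoblast markers, and Omd at 0.70 and 0.78. Whether the r of a gene differs between 2 lists was not tested. Dcn was closest to the fibroblast markers (r = 0.91, 0.68 without 2 mice, adjusted permutation p = 0.0012), as was Podn (r = 0.69, 0.65 without 2 mice, adjusted permutation p = 0.0193). By list, 8 members passed with the tendon markers, of which 7 kept a p under 0.05 without 2 mice, 8 with the osteoblast markers (6 kept), 8 with the fibroblast markers (2 kept, Dcn and Podn) and 5 with the muscle markers (0 kept). For muscle, the 2 mice left out were Jrt;Sost-ko mouse 4 and WT mouse 2, the farthest from the median of these markers. Without them the 5 members had r of 0.16 to 0.44. Centred on the group means with all mice kept, the same members had r of 0.63 (Podn) to 0.84 (Dcn). Leaving out the extreme mice narrows the range, so a lost p does not show what a relation rested on.

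**Figure D5:**
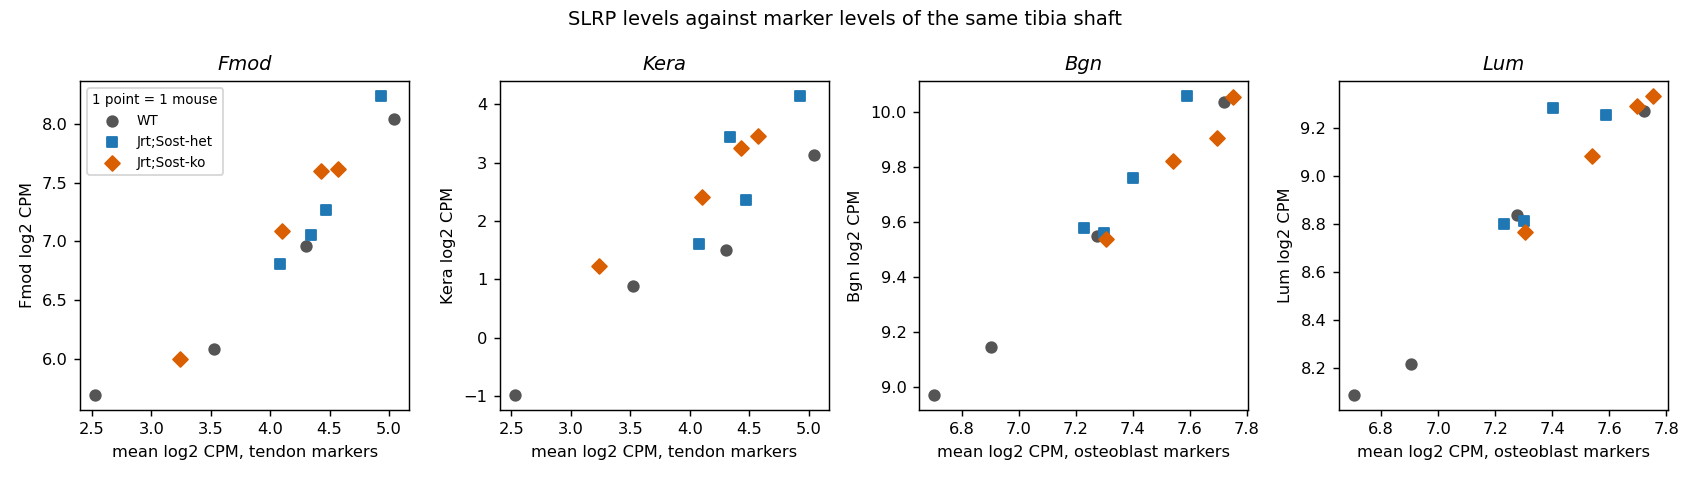
Log2 CPM of Fmod and Kera against the mean log2 CPM of the tendon markers, and of Bgn and Lum against that of the osteoblast markers, a point per mouse and a colour and shape per group. The points rise together in all 4 panels with the 3 groups mixed, and WT mice 1 and 2 are at the lower left of the Bgn and Lum panels.

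Genes outside the family with the most similar pattern were ranked by Pearson's r of log2 CPM over the 12 mice among 17235 genes, as a description without a test. Those nearest to Kera were Tnmd (0.99), Pcdhgc5 (0.94) and Tbx18 (0.94), of which Tnmd, tenomodulin, is a tendon marker. Next to Bgn stood Col5a2 (0.99), Sec31a (0.98) and Timp1 (0.98), where Col5a2 codes for a chain of collagen V, and next to Lum Mmp23 (0.98), Pcolce (0.97) and Tmtc2 (0.97), where Pcolce codes for an enhancer of procollagen C-proteinase. For Fmod they were Trpv4 (0.98), Igsf10 (0.98) and Lrig3 (0.98). For Omd they were Smad6 (0.95), Bglap (0.95) and Gm16332 (0.94), and Bglap codes for osteocalcin, a product of mature osteoblasts. The nearest genes were Epb41l1 (0.97), Plce1 (0.97) and Cgnl1 (0.96) for Dcn, Mfap4 (0.95), Lpin3 (0.95) and Lrp3 (0.95) for Aspn and Trim3 (0.98), Sema4c (0.97) and Plekhg5 (0.96) for Ogn. The values were lower for Prelp, with Fam187b (0.93), Msmp (0.93) and Fxyd2 (0.93), and for Podn, with Dmwd (0.88), Mrgprb1 (0.87) and Entpd2 (0.86). Fam187b and Mrgprb1 had a mean of 0.332 and 0.392 CPM over the 12 mice.

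The other genes of the family showed no called difference. Of 8 (Epyc, Optc, Chad, Nyx, Tsku, Podnl1, Ecm2 and Chadl), 7 were tested, and Optc had at most 10 counts in a mouse. In the Sost contrast 1 of 7 were above 0, with a median log2 fold change of -0.62. Ecm2, the neighbour of Aspn, read 15.8, 9.42, 23.1 and 25.8 CPM in WT mice 1 to 4, 24.3, 27.6, 20.6 and 23.98 CPM in Jrt;Sost-het mice 1 to 4 and 20.04, 12.4, 18.2 and 10.8 CPM in Jrt;Sost-ko mice 1 to 4. Its Jrt;Sost-ko mice were all below the Jrt;Sost-het mice, with a log2 fold change of -0.65 (SE 0.20, unadjusted p = 0.0102, adjusted p = 0.901 in edgeR, exact permutation p = 0.0286). Chad, chondroadherin of cartilage, was 75.2 ± 21.6 CPM in Jrt;Sost-het and 40.5 ± 25.03 CPM in Jrt;Sost-ko mice (log2 fold change -0.89, SE 0.43). Chad lies on chromosome 11 (chr11:94565047-94569127), as do both mutant loci, and the part of linked alleles in its value was not tested. Epyc, epiphycan of growth plate cartilage, was at -1.43 (SE 0.82), Chadl at -0.62, Nyx at -0.40, Podnl1 at -0.07 and Tsku at 0.04. In both Jrt groups against WT, 3 of 7 were above 0 and the median was -0.02, with Chad at -0.47, Chadl at -0.34, Nyx at 0.13, Tsku at 0.10, Podnl1 at -0.06, Ecm2 at 0.05 and Epyc at -0.02.

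None of the genes that make the sulfated chains of these proteins was called. In the Sost contrast, 3 of 6 genes of the linker region were above 0 (median 0.01), with B3galt6 at 0.34 and Xylt2 at -0.13. Xylosyltransferases such as Xylt2 start the linker on the core protein, and B3galt6 adds a galactose to it. Of the chondroitin and dermatan sulfate enzymes 12 of 16 were above 0 (median 0.06), with Chsy1 at 0.18 and Chst15 at -0.09. For keratan sulfate it was 4 of 6 (median 0.04), with B3gnt7 at 0.49 and Chst5 at -0.34, and for sulfate supply and tyrosine sulfation 3 of 5 (median 0.04), with Papss1 at 0.19 and Tpst1 at -0.07. Chsy1 lengthens chondroitin chains, B3gnt7 and Chst5 act on keratan sulfate, and Papss1 makes the sulfate donor of all these reactions. In both Jrt groups against WT the same 4 lists had 3 of 6, 10 of 16, 4 of 6 and 3 of 5 above 0, with medians of -0.01, 0.12, 0.05 and 0.03. The 2 genes with the smallest p in each were B4galt7 (0.10) and Xylt1 (-0.11), Ust (0.40) and Dse (0.14), Chst2 (0.10) and Chst5 (-0.20), and Tpst2 (0.05) and Papss2 (0.08).

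The collagens that the members bind were not called either. Of the collagen genes, 10 of 12 were above 0 in the Sost contrast (median 0.15), with Col1a1 at 0.39 (SE 0.24) and Col1a2 at 0.41 (SE 0.19), and 12 of 12 were above 0 in both Jrt groups against WT (median 0.40), with Col1a1 at 0.48, Col1a2 at 0.41 and Col5a2 at 0.40. Proteases that process or cleave the members were above 0 in 5 of 7 (median 0.11; Adamts5 0.23, Bmp1 0.15) and 6 of 7 (median 0.20; Adamts4 0.62, Bmp1 0.38). Bmp1 cleaves the propeptide of biglycan and the C-propeptide of procollagen. Growth factors and receptors that members bind were above 0 in 8 of 11 (median 0.08) and 9 of 11 (median 0.09). Bmp2, a bone morphogenetic protein, was at 0.52 and Egfr at -0.41 in the first contrast, and the Toll-like receptors Tlr2 at 0.27 and Tlr4 at 0.14 in the second.

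Cell type markers other than Sost were not called. In the Sost contrast, 8 of 9 osteoblast markers were above 0 (median 0.19; Bglap 0.46, Bglap2 0.35), as were 6 of 8 osteocyte markers (median 0.33). Of the osteocyte markers Sost fell (log2 fold change -5.87, adjusted p = 0.013 in edgeR) and Fbln7 was at -0.97. Comp (-0.91) and Mkx (0.36) of the tendon list, Clec3b (-0.79) and Dpt (-0.73) of the fibroblast list, Matn1 (-3.15) and Col10a1 (-1.90) of the chondrocyte list and Myh2 (-1.50) and Mb (-1.52) of the muscle list were not called. By their medians, the chondrocyte and muscle lists were the farthest below 0 of the cell type lists. Marrow markers were above 0 in 5 of 8 (median 0.05; S100a8 -0.14, S100a9 -0.11), adipocyte markers in 1 of 6 (median -0.11; Plin1 -0.31, Lep 0.33) and epidermis markers in 1 of 3 (median -0.18; Lor 0.63, Trp63 -0.79).

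Against WT, both Jrt groups together had 9 of 9 osteoblast markers above 0 (median 0.26; Bglap 0.50, Bglap2 0.45), 6 of 8 osteocyte markers (median 0.27; Mepe 0.41) and 6 of 6 adipocyte markers (median 0.48; Plin1 0.50, Cfd 0.60). Sost fell by 3.35 on the log2 scale (adjusted p = 0.00921 in edgeR) and was the only gene called. This value is a mean over 2 unlike groups. Sost was at -6.29 in Jrt;Sost-ko against WT mice, whereas no osteocyte marker was below -0.41 in Jrt;Sost-het against WT mice. Bone and fat markers were mostly on the upper side in mice with the Jrt allele. None of them was called but Sost, on the lower side with the Jrt;Sost-ko mice included. Tendon markers were above 0 in 5 of 6 (median 0.13; Tnmd 0.86, Thbs4 0.56), fibroblast markers in 4 of 7 (median 0.11; Dpt 0.47, Mfap5 0.39), marrow markers in 2 of 8 (median -0.15; Elane -0.19) and chondrocyte markers in 0 of 7 (median -0.65; Matn1 -1.06, Col10a1 -0.79). Skeletal muscle markers were above 0 in 0 of 16 (median -0.46; Myh7 -2.95, Myh2 -1.69), and epidermis markers in 0 of 3 (median -5.27; Krt10 -5.27, Lor -5.47).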

How the data were processed

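The authors aligned paired-end reads (NovaSeq, poly(A) RNA) to GRCm38 with STAR, and their processing notes also name bcl2fastq 2.20, Cufflinks, Cuffdiff and DESeq. The deposited matrix holds raw counts, without normalization, for 47069 Ensembl genes in 12 mice. The counting tool, its strand setting and the annotation release are not given in the sources used here. The deposited comparison tables hold the authors' log2 fold changes and p-values, which were not used, nor were their 96 columns of counts per mouse. The deposited count files of the single mice equal the matrix.

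Counts were analysed in R 4.3.3 with edgeR 4.0.16 (TMM, filterByExpr, glmQLFit and glmQLFTest, Benjamini-Hochberg over all genes tested, threshold 0.05). A comparison of 2 groups used their 8 mice alone, and both Jrt groups against WT in a fit of all 12. CPM were scaled over 12 libraries, log2 CPM used a prior count of 2, and single genes were also tested by exact two-sided permutation. Correlations used 100000 permutations. TMM factors lay between 0.978 and 1.02. Within groups, the chi-square per degree of freedom between 2 mice was 23.7 to 227, far above counting error. Exon lengths and positions come from GENCODE M21, which held 98.8% of the identifiers. Mouse numbers follow label order and are only names.

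The members and the gene lists were chosen with earlier results of these data known. Named are all members and 8 other genes of the family, Col1a1, Col1a2 and Sost, for every other list and the 2 contrasts given the genes called by edgeR or else the 2 with the smallest unadjusted p, and the 3 genes most like each member. Fbln7 and Mepe were named after their values were seen. The value of 1 listed gene is not reported here. Alternatives were DESeq2 1.42.0, limma-voom 3.58.1 with sample quality weights, DESeq2's size factors, upper-quartile scaling, TMM without muscle, epidermis and marrow genes, no filter on low counts, a filter of 10 counts in every mouse, other samples in the fit, muscle or tendon markers as a covariate, and leaving out WT mice 3 and 4 or each mouse in turn. The chondrocyte covariate and the alternatives for the correlations were added after seeing the data. Functions were tested on simulated data.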

Additional observations from a re-analysis of the deposited data

Results flagged for a closer look

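Of the 30 sets of 4 mice (10 members in 3 groups), 1 held a mouse far from the others. For Prelp in Jrt;Sost-het mice, mouse 1 was the highest with 110.3 CPM and the next mouse had 61.0 CPM, a gap of 0.836 of the group's whole range, above Dixon's critical value of 0.829. Chance alone gives such a value in about 1 set in 20, which is 1.5 of the 30. Without this mouse, the log2 fold change of Prelp in the Sost contrast (Jrt;Sost-ko minus Jrt;Sost-het) was -0.46, where it was -0.77 with it. The mouse also had the highest summed level of chondrocyte markers, 3431 CPM. The part of cartilage in the value of this mouse was not tested.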

How the results depend on the processing

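No member was called under any alternative in any of the 4 comparisons. The number of members with a log2 fold change above 0 in the Sost contrast (Jrt;Sost-ko minus Jrt;Sost-het) was 3, and became 5 with muscle markers, 7 with tendon markers and 5 with chondrocyte markers as a covariate, and 3 to 6 with each mouse left out in turn. In that contrast, Kera turned to 0.00190 with limma-voom, 0.29 with the tendon and 0.44 with the chondrocyte covariate, Fmod to 0.26 and 0.12 with these covariates, Aspn to 0.0636 and Ogn to 0.0273 with the muscle covariate, and Aspn to 0.16 and Ogn to 0.0196 with the tendon covariate. With each mouse left out in turn, Kera ran from -0.68 to 0.16 and Fmod from -0.41 to 0.15, above 0 without Jrt;Sost-het mouse 1 (0.16 and 0.15) and for Fmod without Jrt;Sost-ko mouse 4 (0.00496). Aspn ran from -0.33 to 0.0960, above 0 without Jrt;Sost-het mouse 2 and without Jrt;Sost-ko mouse 4 (0.0861), and Ogn from -0.16 to 0.0214, above 0 without Jrt;Sost-ko mouse 4. In Jrt;Sost-het against WT mice, Prelp turned to -0.0372 with the tendon covariate and ran from -0.0568 to 0.52 with single mice left out, below 0 without Jrt;Sost-het mouse 1. In Jrt;Sost-ko against WT mice, Podn turned to 0.0946 with limma-voom, 0.0382 with the muscle covariate and 0.0759 without WT mice 3 and 4, and ran from -0.21 to 0.0673 with single mice left out, above 0 without WT mouse 4 (0.0562) and without mouse 3 (0.0306) or mouse 4 of the Jrt;Sost-ko group. There Dcn ran from -0.0577 to 0.26 and Fmod from -0.0381 to 0.86, both below 0 without WT mouse 2. In both Jrt groups against WT, Prelp turned to 0.30 without WT mice 3 and 4 and ran from -0.29 to 0.14 with single mice left out, above 0 without WT mouse 4. The cause of these turns was not tested. The other 803 values of single genes kept their direction and side of the threshold. The 27 correlated pairs of members were 21 by Spearman's rho, 33 centred on group means, 26 without WT mice 3 and 4, and 23 to 30 with each mouse left out. Kera, with 13 to 464 counts in a mouse, was the member with the fewest counts and the widest intervals. No paired analysis was made, since the labels used link no mouse to a mouse of another group and the mouse numbers are only names.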
